A study of Mus musculus with 8 samples.

Results

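The genes described here are 7 mouse genes of sialyltransferases, the Golgi enzymes that cap glycan chains with sialic acid. They were St3gal1, St3gal2, St3gal3, St3gal4, St3gal5 and St3gal6, whose products attach sialic acid to galactose through an alpha-2,3 linkage, and St6gal1, whose product uses an alpha-2,6 linkage. They were chosen by gene symbol, and all 7 were found among the 18020 rows of the expression table by their NCBI gene numbers. The family was taken up because St3gal6 stood out between the LPS and PBS libraries of these same data, so every difference of St3gal6 is given as a description, with no p-value, and nothing is read from where it passed a threshold.

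RNA-seq gave 8 libraries from the bone marrow of mice with leukaemia that had been transplanted with B cells that carry BCR-ABL1, the fusion kinase behind one form of B-cell acute lymphoblastic leukaemia. In KO_LPS (3 libraries) the cells were Aid KO and, as the labels word it, treated with lipopolysaccharide (LPS), a bacterial cell wall component. In WT_LPS (3 libraries) the cells were Aid WT and LPS-treated, and in WT_PBS (2 libraries) they were Aid WT and treated with the vehicle PBS, a buffered saline. The labels give no dose, time, strain, age or host genotype, and do not say how the treatment was given or whether the mice received any themselves. They do not say whether the animals of a group shared 1 culture of transformed cells, and the spread behind each p-value is only that between these libraries. No library of Aid-deficient cells with PBS was analysed here, so KO_LPS differs from WT_PBS in both genotype and treatment.

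Sialic acid is first activated to CMP-sialic acid and carried into the Golgi, where each transferase adds it to a galactose on a preferred chain. In blood cells the caps matter at the cell surface. Sialylated and fucosylated chains are the ligands of selectins, which slow cells on vessel walls, and other sialylated chains are bound by the Siglec receptors, among them CD22 on B cells. The products of St3gal3, St3gal4 and St3gal6 act mainly on chains ending in galactose linked to N-acetylglucosamine, those of St3gal1 and St3gal2 on the core of mucin-type O-glycans and, for St3gal2, gangliosides. St3gal5 encodes GM3 synthase, the entry enzyme of ganglioside synthesis, and St6gal1 makes the N-glycan cap that CD22 binds.

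Expression was given as FPKM, a fragment number divided by transcript length and by library size, so levels can be set beside each other between genes. They summed to 606576 to 700238 per library. Depth in reads is unknown. The libraries were mixtures of cells. The 14 B-lineage markers listed summed to 5999 to 8814 FPKM in KO_LPS, 6145 to 7505 FPKM in WT_LPS and 6215 to 7032 FPKM in WT_PBS, led by the surrogate light chain genes Vpreb1 and Igll1, and only Ms4a1, a marker of mature B cells, was listed at 0 in a library. The 15 neutrophil markers, led by S100a8 and S100a9, summed to 6327 to 15840 FPKM in KO_LPS, 9592 to 31122 FPKM in WT_LPS and 13831 to 17330 FPKM in WT_PBS. Summed markers of monocytes and macrophages (231.6 to 432 FPKM), T and NK cells (25.5 to 56.1 FPKM) and stroma and endothelium (29.8 to 58.3 FPKM) were far lower in all 8 libraries. In bulk RNA, more cells of a type and more RNA per cell cannot be told apart.

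One axis cut across the groups. The first principal component of the 12061 tested genes held 60.5% of their variance, and KO_LPS replicates 1 and 2 and WT_LPS replicate 1 scored 34.5, 50.02 and 17.4 on it, against -35.1 to -1.30 in the other 5 libraries. The same KO_LPS replicates had the highest summed level of erythroid markers, at 1237 and 998 FPKM, against 133 FPKM in KO_LPS replicate 3, 143 to 350 FPKM in WT_LPS and 234 to 367 FPKM in WT_PBS. Differences of the 7 genes and list medians are also given without these 3 libraries, which leaves KO_LPS replicate 3 alone in its group and assumed to vary like the other groups.

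RefSeq promoter windows (GRCm38.p6, 250 bases before to 50 after a start) were at hand for 5 of the 7 genes. Those of St3gal6, the member whose level differed most between the groups, are shown because they stand at its 2 starts in the RefSeq table, both on the minus strand of chromosome 16, at chr16:58523377-58523676 and chr16:58524204-58524503. Capitals mark the motif matches found on either strand.

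St3gal6, first window: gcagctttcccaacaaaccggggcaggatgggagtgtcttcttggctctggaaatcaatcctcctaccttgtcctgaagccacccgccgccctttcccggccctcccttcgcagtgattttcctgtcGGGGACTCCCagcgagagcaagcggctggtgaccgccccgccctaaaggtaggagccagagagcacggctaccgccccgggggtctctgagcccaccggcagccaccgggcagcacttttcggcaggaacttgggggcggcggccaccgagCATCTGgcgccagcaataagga

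St3gal6, second window: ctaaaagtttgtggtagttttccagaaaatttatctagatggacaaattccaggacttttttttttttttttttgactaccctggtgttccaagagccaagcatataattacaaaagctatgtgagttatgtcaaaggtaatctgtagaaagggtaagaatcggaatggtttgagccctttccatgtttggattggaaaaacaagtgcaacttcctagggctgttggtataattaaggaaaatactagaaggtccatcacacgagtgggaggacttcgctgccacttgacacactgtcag

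The windows differ in composition, with 64.7% G and C in the first and 38.7% in the second. The motifs searched were TTCNNNGAA (bound by STAT factors), CAGNTG (an E-box), the core of the interferon response element, the palindromic EBF site and the NF-kB consensus, on both strands, and the matches do not overlap. The first window held 1 NF-kB match at position -123 from the start and 1 E-box at position 29. Of 32841 mouse promoter windows of this length, 8.46% hold the NF-kB consensus, 51.4% the E-box, 8.30% the STAT motif, 3.44% the interferon response core and 0.904% the EBF site. The second window held none of these motifs, and among the 6 windows of St3gal3, St3gal4, St3gal5 and St6gal1 there was 1 further match, an E-box in a St6gal1 window. A match is a stretch of letters and not a binding site, and the deposited gene-level values do not say which start was used.

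St3gal6 was the most abundant of the 7 genes in each of the 8 libraries. It stood at 64.05, 58.91 and 51.1 FPKM in KO_LPS, at 32.01, 33.75 and 34.93 FPKM in WT_LPS, beside 20.84 and 24.2 FPKM in WT_PBS. Every KO_LPS library lay above every WT_LPS library, and every WT_LPS library lay above both WT_PBS libraries. The group means were 58.02 ± 6.52 FPKM in KO_LPS (SD, n = 3), 33.6 ± 1.47 FPKM in WT_LPS (n = 3) and 22.5 ± 2.38 FPKM in WT_PBS (n = 2). The gene spans 58469742 to 58524260 on chromosome 16 (GRCm38.p6, as for all gene positions given). Such a full ordering of the 3 groups with KO_LPS highest was seen in 34 of 12061 tested genes, or 0.282%. With KO_LPS lowest it was seen in 37 genes, or 0.307%. Since St3gal6 was chosen for its difference between LPS and PBS libraries, part of its ordering was fixed by that choice. Nothing is read from the share.

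**Figure D1:**
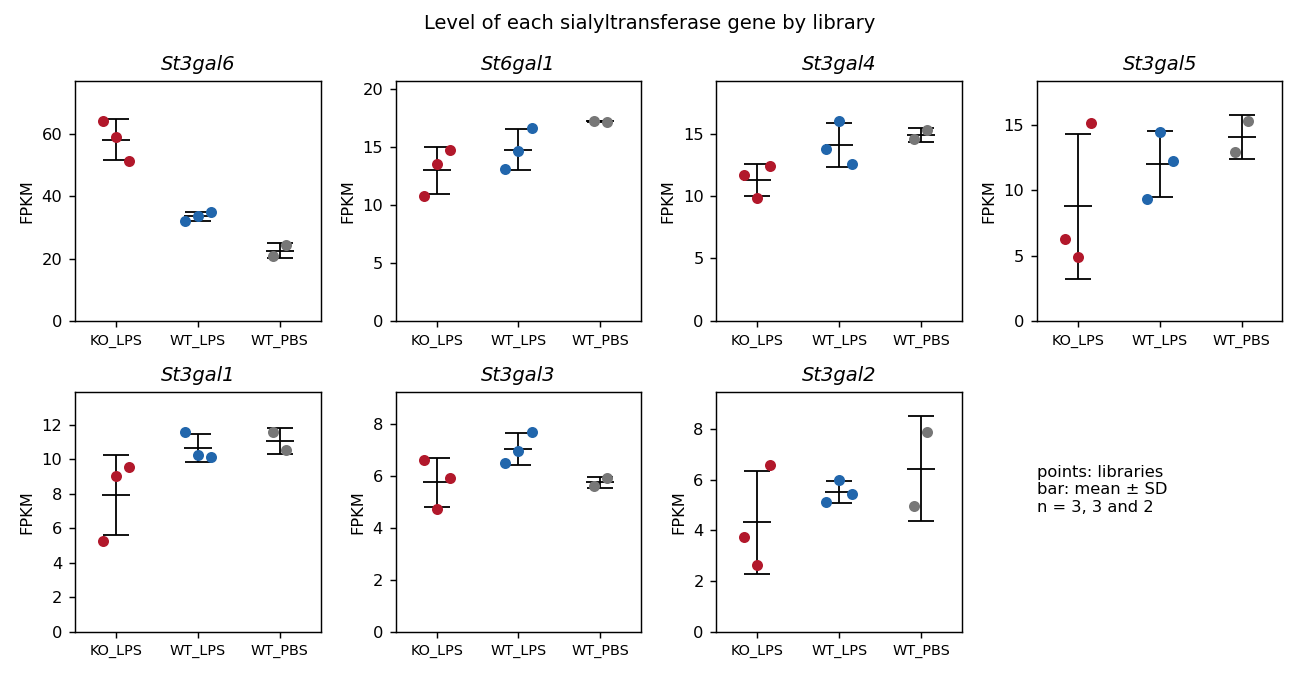
FPKM of each of the 7 genes (vertical axis, from 0) in the KO_LPS, WT_LPS and WT_PBS libraries, 1 point per library, with the group mean and SD as bars (n = 3, 3 and 2). The St3gal6 points form 3 separate steps from 20.84 to 64.05 FPKM, whereas the other 6 genes stay at or below 17.23 FPKM.

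On the log2(FPKM + 1) scale St3gal6 differed by 0.77 ± 0.13 (SE) between KO_LPS and WT_LPS, by 1.33 ± 0.15 between KO_LPS and WT_PBS and by 0.56 ± 0.15 between WT_LPS and WT_PBS. These comparisons share libraries and are not separate lines of evidence. The ratio of mean FPKM was 1.73 for KO_LPS over WT_LPS, 2.58 for KO_LPS over WT_PBS and 1.49 for WT_LPS over WT_PBS. Without the 3 libraries with high component scores the log2 differences were 0.56, 1.15 and 0.59 in the same order. With FPKM divided by the summed B-lineage markers of the same library, St3gal6 was at 7.27, 8.05 and 8.52 per 1000 B-lineage FPKM in KO_LPS, at 4.27, 5.49 and 5.12 in WT_LPS and at 2.96 and 3.89 in WT_PBS. On that scale, too, the groups did not overlap, which the choice of the gene fixed in part. No share over all genes is given for it, and Vpreb1 and Igll1 lead the sum. The part of leukaemia cell content in the difference was not tested.

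The next 3 genes by mean level were St6gal1 (14.7 FPKM over the 8 libraries), St3gal4 (13.3 FPKM) and St3gal5 (11.3 FPKM), followed by St3gal1 (9.74 FPKM), St3gal3 (6.24 FPKM) and St3gal2 (5.30 FPKM). Most neighbours in this order did not differ beyond their spread. St6gal1 was above St3gal4 in 5 of 8 libraries, with a mean log2 ratio of 0.15 ± 0.23 (SD), St3gal4 was above St3gal5 in 7 of 8 (0.32 ± 0.46), and St3gal5 was above St3gal1 in 6 of 8 (0.15 ± 0.51). St3gal1 was above St3gal3 in 7 of 8 libraries, by 0.62 ± 0.44, and St3gal3 above St3gal2 in 6 of 8, by 0.29 ± 0.44. The top step was the widest: St3gal6 was above St6gal1 in 8 of 8 libraries, by 1.36 ± 0.78 on the log2 scale, and this ratio itself varied with the group.

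St6gal1, the alpha-2,6 member, was at 10.74, 13.5 and 14.69 FPKM in KO_LPS, at 13.1, 14.61 and 16.59 FPKM in WT_LPS, beside 17.23 and 17.17 FPKM in WT_PBS. All 6 LPS libraries lay below both WT_PBS libraries, and KO_LPS overlapped with WT_LPS. Of all tested genes, 13.3% were lower without overlap in KO_LPS than in WT_PBS, and 10.3% in WT_LPS than in WT_PBS. No share was counted for both together. The gene lies on chromosome 16 from 23224729 to 23360350. In the 3 libraries with high component scores it was at 10.74 to 13.5 FPKM, and in the other 5 at 14.61 to 17.23 FPKM. The difference between KO_LPS and WT_LPS was -0.18 ± 0.17 (SE) and became -0.08 without those 3 libraries, -0.06 without KO_LPS replicate 1, -0.10 without WT_LPS replicate 3 and -0.02 without the libraries numbered 40 and 100. Between KO_LPS and WT_PBS it was -0.39, and -0.21 without those 3 libraries. The level of St3gal6 was 5.96, 4.36 and 3.48 times that of St6gal1 in KO_LPS, 2.44, 2.31 and 2.11 times in WT_LPS and 1.21 and 1.41 times in WT_PBS. This ratio is formed within a library, so that no scaling factor between libraries affects it, and its 3 groups did not overlap. Because St3gal6 was chosen for its difference between LPS and PBS libraries, that separation is a description only.

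As a share of the summed FPKM of the 7 genes, St3gal6 made up 59.1%, 56.9% and 44.3% in KO_LPS, 34.99%, 33.1% and 35.1% in WT_LPS and 23.8% and 25.1% in WT_PBS. The sum itself varied less, with 104 to 115 FPKM in KO_LPS, 91.5 to 101.99 FPKM in WT_LPS and 87.7 to 96.3 FPKM in WT_PBS. The other 6 genes together summed to 44.3, 44.65 and 64.2 FPKM in KO_LPS, to 59.5, 68.2 and 64.6 FPKM in WT_LPS and to 66.8 and 72.1 FPKM in WT_PBS. KO_LPS replicate 3 stood within the range of WT_LPS in this sum, and the low values were those of KO_LPS replicates 1 and 2, which also had the highest component scores. The part of that component in the result was not tested.

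**Figure D2:**
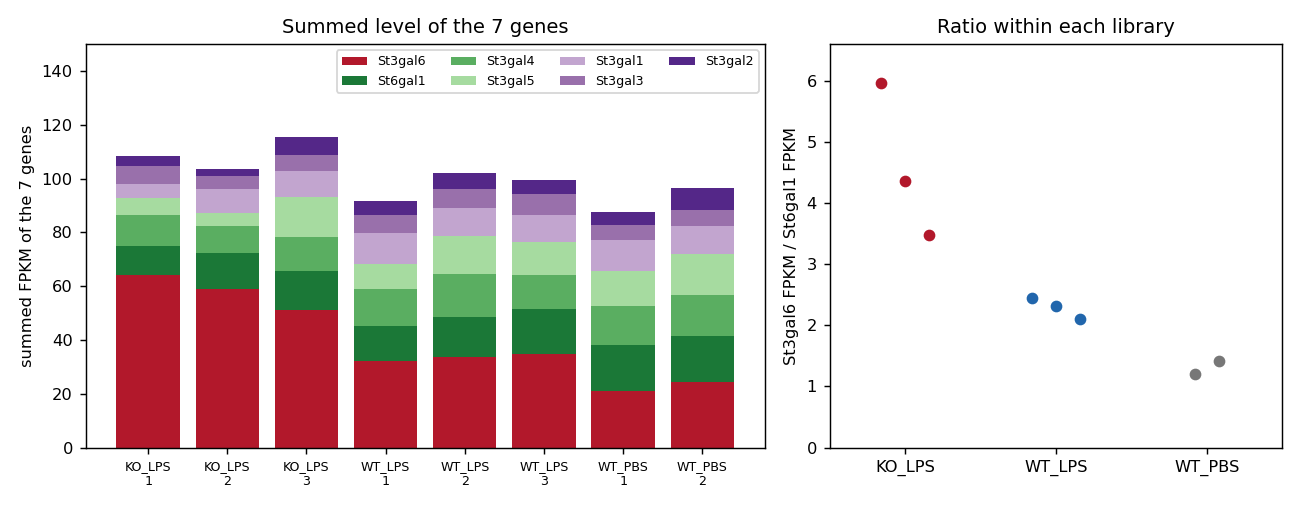
Left, FPKM of the 7 genes stacked for each library, in the order KO_LPS 1 to 3, WT_LPS 1 to 3 and WT_PBS 1 and 2. Right, the ratio of St3gal6 to St6gal1 FPKM, 1 point per library, which lay between 3.48 and 5.96 in KO_LPS, between 2.11 and 2.44 in WT_LPS and between 1.21 and 1.41 in WT_PBS.

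The comparison of KO_LPS with WT_LPS asked how marrow with Aid-deficient cells differed from marrow with Aid-intact cells when both had LPS. In it, all 6 genes other than St3gal6 had a difference below 0, from -0.54 (St3gal5) to -0.18 (St6gal1), where 57.96% of all tested genes were below 0 and the median of all genes was -0.06. Without the 3 libraries with high component scores, 45.4% of all tested genes were below 0 with a median of 0.018, and of these 6 genes St3gal5 and St3gal2 were above 0. None passed the threshold of an adjusted p of 0.05: 0 of the 6 were called (limma, adjusted p = 0.765 to 0.767), and 0 of the 6 had an unadjusted p under 0.05, as 5.69% of all tested genes had. All 7 genes passed the filter at a mean of 0.5 FPKM. Across all tested genes 0.0829% were called in this comparison. Without KO_LPS replicate 3 the number called was 160 of all genes, without WT_LPS replicate 2 or either WT_PBS replicate it was 0 of all genes, without KO_LPS replicate 1 or 2 or WT_LPS replicate 3 it was 1, and without WT_LPS replicate 1 it was 3. With estimated library weights, 2727 genes passed, among them St3gal1, St3gal5 and St6gal1 as lower.

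In the same comparison the groups did not overlap for St3gal6, 1 of 7 genes and higher in KO_LPS, beside 4.82% of all tested genes. They did not overlap either for St3gal1 and St3gal4, 2 of 7 genes and lower in KO_LPS, beside 4.32% of all tested genes. St3gal1, the O-glycan core enzyme, was at 5.26, 9.01 and 9.54 FPKM in KO_LPS, at 11.61, 10.26 and 10.14 FPKM in WT_LPS, beside 11.59 and 10.54 FPKM in WT_PBS. Its KO_LPS libraries were the lowest of the 8, and most of the distance came from replicate 1. The difference between KO_LPS and WT_LPS was -0.42 ± 0.22 (SE) on the log2 scale, with a 95% interval from -0.93 to 0.09, and was -0.18 without KO_LPS replicate 1 and -0.09 without the 3 libraries with high component scores. St3gal1 lies on chromosome 15 from 67102875 to 67176946.

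St3gal4, which with St3gal6 is known in mice for building selectin ligands on leukocytes, was at 11.69, 9.87 and 12.37 FPKM in KO_LPS, at 13.77, 16.01 and 12.53 FPKM in WT_LPS, beside 14.53 and 15.31 FPKM in WT_PBS. The groups were separate only narrowly, by the 12.37 FPKM of KO_LPS replicate 3 and the 12.53 FPKM of WT_LPS replicate 3. The difference between KO_LPS and WT_LPS was -0.29 ± 0.16 (SE; 95% interval -0.66 to 0.07), and -0.18 without the 3 libraries with high component scores. The gene lies on chromosome 9 from 35046576 to 35116864.

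St3gal5 varied as widely as St3gal6, with 3.11 times between its highest and lowest library, against 3.07 times for St3gal6. It was at 6.27, 4.91 and 15.12 FPKM in KO_LPS, at 9.35, 14.41 and 12.22 FPKM in WT_LPS, beside 12.89 and 15.28 FPKM in WT_PBS. KO_LPS thus held the 2 lowest values and the second highest of the 8. The 3 libraries with high component scores had 4.91 to 9.35 FPKM and the other 5 had 12.22 to 15.28 FPKM, whichever group they came from. The difference of -0.54 ± 0.35 (SE) between KO_LPS and WT_LPS turned to 0.18 without those 3 libraries. St3gal5 lies on chromosome 6 from 72097552 to 72154571.

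St3gal2, at a lower level, had 3.75, 2.63 and 6.59 FPKM in KO_LPS, 5.14, 6 and 5.45 FPKM in WT_LPS and 4.97 and 7.9 FPKM in WT_PBS. KO_LPS replicates 1 and 2 were the lowest of the 8 libraries, while the third library with a high component score, WT_LPS replicate 1, was above WT_PBS replicate 1. Its difference between KO_LPS and WT_LPS was -0.36 ± 0.29 (SE) and likewise turned to 0.18 without the 3 libraries with high component scores. St3gal2 lies on chromosome 8 from 110919743 to 110974058.

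St3gal3 showed the narrowest span after St6gal1 and St3gal4, at 6.61, 4.73 and 5.92 FPKM in KO_LPS, 6.5, 6.95 and 7.71 FPKM in WT_LPS and 5.61 and 5.91 FPKM in WT_PBS. It was the only member besides St3gal6 whose WT_LPS libraries all lay above both WT_PBS libraries, beside 5.36% of all tested genes. Its difference between KO_LPS and WT_LPS was -0.26 ± 0.18 (SE), and -0.15 without KO_LPS replicate 2. That between KO_LPS and WT_PBS was -0.01 ± 0.20, with a 95% interval from -0.48 to 0.45. The gene lies on chromosome 4 from 117932152 to 118134972.

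**Figure D3:**
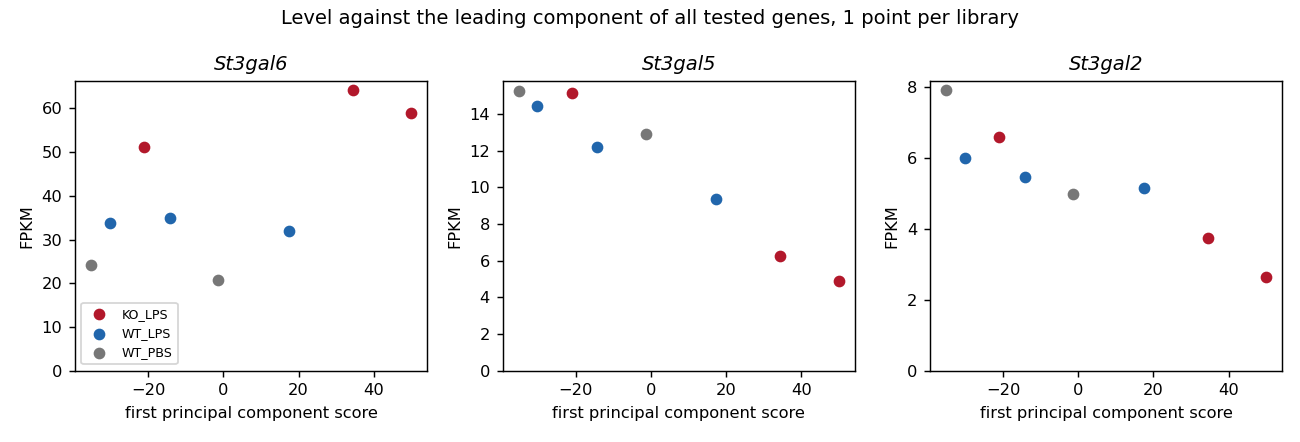
FPKM of St3gal6, St3gal5 and St3gal2 (vertical axes, from 0) against the first principal component score of each library (horizontal axis), coloured by group. St3gal5 was at or below 9.35 FPKM in the 3 libraries with high scores and at or above 12.22 FPKM in the others, St3gal2 overlapped between them, and KO_LPS replicate 3, with a score of -21.1, had 51.1 FPKM of St3gal6, above each of the 5 libraries with intact Aid.

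Between KO_LPS and WT_PBS, which differ in both genotype and treatment, the 6 other genes again had differences below 0, from -0.77 (St3gal5) to -0.01 (St3gal3), beside a median of -0.12 over all genes, of which 64.95% were below 0. Under median-ratio scaling, which brings the median of all genes to 0.0064, St3gal3 stood at 0.12, and under quantile normalization at 0.21. Without the 3 libraries with high component scores St3gal5, St3gal2 and St3gal3 stood at 0.10, 0.058 and 0.034. None of these 6 genes passed (limma, adjusted p = 0.631 to 0.984), and 0 of the 6 had an unadjusted p under 0.05, as 6.69% of all tested genes had. The groups did not overlap for St3gal6 (1 of 7, higher), beside 8.22% of all tested genes, and for St3gal1, St3gal4 and St6gal1 (3 of 7, lower), beside 13.3% of all tested genes. St6gal1 differed by -0.39 ± 0.19 (SE; 95% interval -0.82 to 0.04) and St3gal4 by -0.38 ± 0.18 (-0.79 to 0.04).

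St3gal6 itself was the 1 of 7 genes called in this comparison, against 0.0332% of all tested genes called as higher and 0.0497% called in either direction, and since it drew attention through the WT_PBS libraries nothing is read from that call. The count fell to 0 when any single library other than KO_LPS replicate 3 was left out. Over all genes, 6 were called, 125 without KO_LPS replicate 3 and 0 to 2 without any other library.

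Between WT_LPS and WT_PBS, the comparison through which the family was chosen, 0 of 7 genes were called (limma), where 0% of all tested genes were called and 142 genes, or 1.18%, had an unadjusted p under 0.05. The values are a description. Besides St3gal6, the differences ranged from -0.23 (St3gal5) to 0.25 (St3gal3). The groups did not overlap for St3gal6 and St3gal3 (2 of 7, higher in WT_LPS), beside 5.36% of all tested genes, and for St6gal1 (1 of 7, lower in WT_LPS), beside 10.3% of all tested genes.

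**Figure D4:**
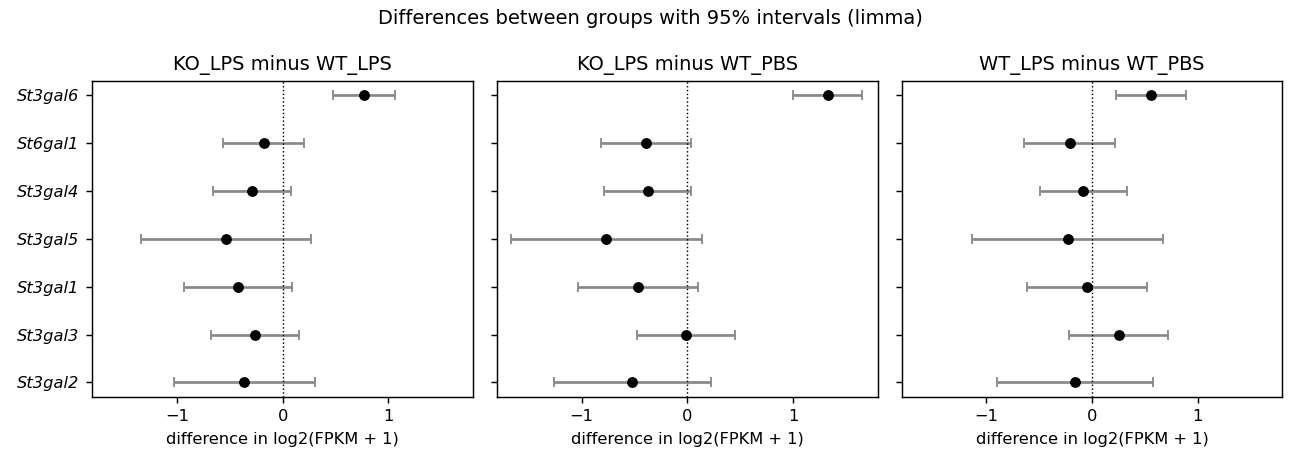
Difference in log2(FPKM + 1) (horizontal axis) of each gene in the 3 comparisons, first-named group minus second, with 95% intervals from limma. In each panel the interval of St3gal6 lies above 0 and those of the other 6 genes include 0. The St3gal6 intervals are descriptive, since the gene was chosen for its difference.

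The genes whose pattern over the 8 libraries was most like that of St3gal6 were, among 11111 other tested protein-coding genes with names, Usp39 (Pearson r = 0.986 of log2(FPKM + 1)), Ifi27l2a (r = 0.965), Prss12 (r = 0.964), Mrps16 (r = 0.954) and Psmb9 (r = 0.948). The 8 points share the groups and the libraries, and the 5 genes are the highest of many, so the r are descriptions. Ifi27l2a, an interferon-induced gene, was at 149.6, 131.5 and 103.5 FPKM in KO_LPS, at 67.8, 66.7 and 65.7 FPKM in WT_LPS, beside 51.9 and 60.8 FPKM in WT_PBS. Psmb9, an interferon-inducible immunoproteasome subunit gene, was at 161.5, 123 and 127 FPKM in KO_LPS, at 88.02, 84.5 and 95.4 FPKM in WT_LPS, beside 76.9 and 80.3 FPKM in WT_PBS. For both, every KO_LPS library was above every WT_LPS library, and these above both WT_PBS libraries. So it was for Prss12, at 7.14 to 7.99 FPKM in KO_LPS, 2.37 to 3.65 FPKM in WT_LPS and 0.97 to 2.14 FPKM in WT_PBS. Mrps16 followed too, at 69.09 to 74.98, 62.7 to 64.88 and 57.66 to 60.41 FPKM in that sequence. Choosing genes by likeness to St3gal6 favours this order. Usp39, a splicing factor gene, kept the same order over a narrower span, 45.13 to 48.52 FPKM in KO_LPS, 41.86 to 42.72 FPKM in WT_LPS and 38.47 to 40.5 FPKM in WT_PBS. The genes most like St6gal1 were Lca5 (r = 0.977), Gtf2a1 (0.965), Ephb4 (0.961), Kdr (0.954) and Snrpa1 (0.953). Of these, Kdr, the gene of an endothelial growth factor receptor, was at only 0.59 to 0.88 FPKM in KO_LPS, 0.65 to 1.07 FPKM in WT_LPS and 1.22 to 1.23 FPKM in WT_PBS.

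Genes on either side of these enzymes in the pathway gave 0 calls in each of the 3 comparisons (limma), in all 7 lists. Few genes were called at all: 0.0829% of all tested genes between KO_LPS and WT_LPS, 0.0497% between KO_LPS and WT_PBS and 0% between WT_LPS and WT_PBS. The absence of calls is therefore no result about these lists. The 7 list medians between KO_LPS and WT_LPS lay further below 0 than the -0.06 of all genes, and they shrank towards 0 or turned without the 3 libraries with high component scores. Across all genes 5.69% had an unadjusted p under 0.05 in that comparison. The list of CMP-sialic acid supply held the route from the bifunctional kinase Gne to the Golgi transporter Slc35a1 and, beside that route, Cmah and Npl. It had 7 of 7 genes tested, with a median log2 difference of -0.12 between KO_LPS and WT_LPS (-0.0019 without the 3 libraries) and 0 genes with an unadjusted p under 0.05. Its most abundant genes were Nans, the sialic acid phosphate synthase, at 45.7 ± 5.79 FPKM in KO_LPS (SD, n = 3), 49.9 ± 4.24 FPKM in WT_LPS (n = 3) and 43.8 ± 8.72 FPKM in WT_PBS (n = 2), and Cmas, which makes CMP-sialic acid, at 23.2 ± 3.67, 26.5 ± 1.47 and 24.2 ± 2.55 FPKM in the same order. Of 13 other sialyltransferases listed, 11 were in the table and 4 were high enough to test. The most abundant were St6galnac4, which caps O-glycans, at 20.1 ± 4.70 FPKM in KO_LPS, 17.6 ± 3.26 FPKM in WT_LPS and 18.6 ± 4.69 FPKM in WT_PBS, and the polysialyltransferase gene St8sia4, at 9.92 ± 1.79 FPKM in KO_LPS, 10.4 ± 1.23 FPKM in WT_LPS and 9.15 ± 0.417 FPKM in WT_PBS. Neither reached the level of St3gal6 in any library. Among sialidases and O-acetylation genes, 3 of 7 were tested, and Neu1, the lysosomal sialidase, was at 17.4 ± 1.99 FPKM in KO_LPS, 20.2 ± 5.06 FPKM in WT_LPS and 17.6 ± 3.32 FPKM in WT_PBS. Its partner Ctsa, the protective cathepsin, was at 80.95 ± 18.9 FPKM in KO_LPS, 70.5 ± 8.33 FPKM in WT_LPS and 64.4 ± 3.15 FPKM in WT_PBS.

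The enzymes that build the galactose-ended acceptor chains had 19 of 21 genes tested. Their median was -0.26 between KO_LPS and WT_LPS and -0.34 between KO_LPS and WT_PBS, beside -0.06 and -0.12 over all genes. In the same order 1 and 5 genes had an unadjusted p under 0.05 (limma), as 5.69% and 6.69% of all tested genes had. Without the 3 libraries these medians were -0.019 and -0.097, beside 0.018 and 0.0044 over all genes. B3gnt2, which extends poly-N-acetyllactosamine, was at 87.4 ± 11.9 FPKM in KO_LPS, 75.65 ± 6.79 FPKM in WT_LPS and 66.5 ± 6.56 FPKM in WT_PBS. Galnt1, which starts O-glycans, was at 36.4 ± 6.94 FPKM in KO_LPS, 43.9 ± 8.10 FPKM in WT_LPS and 60.6 ± 12.01 FPKM in WT_PBS. In the ganglioside pathway, to which the St3gal5 enzyme belongs, 10 of 12 genes were tested with a median of -0.30 between KO_LPS and WT_LPS (-0.05 without the 3 libraries) and 2 genes with an unadjusted p under 0.05. B4galnt1, which makes GM2 from GM3, was at 58.4 ± 10.3 FPKM in KO_LPS, 84.5 ± 9.78 FPKM in WT_LPS and 78.96 ± 2.30 FPKM in WT_PBS, and Gm2a, the GM2 activator, at 37.01 ± 2.76, 40.6 ± 2.69 and 38.9 ± 2.15 FPKM in the same order.

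On the side of recognition, 11 of 14 selectin and selectin ligand genes were tested. Their median was -0.17 between KO_LPS and WT_LPS, and 1 gene had an unadjusted p under 0.05. Without the 3 libraries the median was 0.010, over 12 tested genes and so not the same set. Selplg, the gene of the selectin ligand PSGL-1, was at 95.9 ± 52.96 FPKM in KO_LPS, 127 ± 18.3 FPKM in WT_LPS and 122 ± 29.5 FPKM in WT_PBS, and Cd24a, a heavily glycosylated surface protein, at 88.2 ± 28.3, 115 ± 3.73 and 115 ± 2.88 FPKM in the same order. Of 9 sialic acid receptors 5 were tested, all 5 below 0 between KO_LPS and WT_LPS, where 57.96% of all tested genes were, with a median of -0.67 and 2 genes with an unadjusted p under 0.05. Without the 3 libraries 2 of 5 were below 0 and the median was 0.020. Cd22, the gene of the B-cell Siglec that binds the N-glycan cap made by the St6gal1 enzyme, was at 21.2 ± 5.57 FPKM in KO_LPS, 32.96 ± 7.23 FPKM in WT_LPS and 37.4 ± 3.31 FPKM in WT_PBS. Siglecg, a second B-cell Siglec, was at 14.7 ± 2.11 FPKM in KO_LPS, 16.4 ± 0.890 FPKM in WT_LPS and 13.8 ± 0.573 FPKM in WT_PBS. Between KO_LPS and WT_LPS 15 of 15 neutrophil markers were also below 0, with a median of -0.71 and 0 called, and without the 3 libraries 0 of 15 were, with a median of 0.56. Summed, these markers were at 7371, 6327 and 15840 FPKM in KO_LPS replicates 1 to 3. In WT_LPS replicates 1 to 3 they were at 31122, 10232 and 9592 FPKM. Their part in the receptor values was not tested.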

How the data were processed

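Total RNA of bone marrow went into SMARTer mRNA libraries, per the labels' protocols. Values are the authors' FPKM per gene, per the file headers, deposited with 2 decimals. The builds GRCm38 and mm10 come from the submitters' processing notes, and which aligner and quantifier were used is not given in the sources used here. FPKM is not corrected for composition, and its number of reads is unknown, so no counting interval is given. Gene numbers were matched to symbols through a RefSeq table of GRCm38.p6 (16798 of 18020 rows).

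Values were fitted as log2(FPKM + 1) with limma (version 3.58.1, R 4.3.3, intensity trend) over the 12061 genes that averaged 0.5 FPKM or more, all 8 libraries in 1 fit, two-sided, with Benjamini-Hochberg adjustment over all genes in each comparison. A pseudocount of 1 understates the change of low genes. Groups came from the titles, and replicate numbers follow accession order. The 7 genes, the lists and the tests were chosen with earlier results of these data known. List genes were named by level (the 2 highest of each list) or by a call, and likeness by the 5 highest r. Other scalings, filters, pseudocounts and sets of libraries gave 17 further fits, and 1 more was chosen after seeing the data. The fit was checked on simulated data. The level of the targeted gene is not reported here.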

Additional observations from a re-analysis of the deposited data

How the results depend on the processing

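St3gal6 kept its direction in the 3 comparisons under each of the 18 alternatives, at 0.56 to 0.85 between KO_LPS and WT_LPS, 1.15 to 1.47 between KO_LPS and WT_PBS and 0.45 to 0.66 between WT_LPS and WT_PBS. The counts of calls did not hold. Beside 10 genes called between KO_LPS and WT_LPS there were 5 with no filter, 2 with a filter at a mean of 5 FPKM, 0 with only the 2 groups compared or without the libraries numbered 40 and 100, 1 without the 3 libraries with high first component scores (chosen after seeing the data), 2727 with library weights, and 0 to 160 with 1 library left out. Beside 6 between KO_LPS and WT_PBS there were 0 with no filter, with only the 2 groups or without the libraries numbered 40 and 100, 3 at 5 FPKM or with median-ratio scaling, 10 with quantile normalization, 73 with library weights, 1 without the 3 libraries, and 0 to 125 with 1 library left out. Between WT_LPS and WT_PBS, leaving out 1 library gave 0 to 2. The 1 of 7 sialyltransferase genes called between KO_LPS and WT_PBS became 0 with no filter, median-ratio scaling, only the 2 groups compared, without the libraries numbered 40 and 100 and without the 3 libraries, and 0 to 1 with 1 library left out. Between KO_LPS and WT_LPS 0 of the 7 became 4 with library weights and 0 to 1 with 1 library left out. Library weights also gave list calls between KO_LPS and WT_LPS. These were sialidases (1 of 3 tested), acceptor enzymes (5 of 19), gangliosides (5 of 10), selectins (4 of 11) and receptors (3 of 5). That fit called 2727 of all 12061 tested genes, so nothing is read from these counts or from the 4 of 7. Leaving out 1 library gave 0 to 1 in the selectin list in both KO_LPS comparisons. These weights, estimated gene by gene because the default estimate did not converge, were 10.1 for WT_LPS replicate 3 and 0.246 to 1.40 for the other 7 libraries. St3gal3 between KO_LPS and WT_PBS turned to 0.12 with median-ratio scaling, 0.21 with quantile normalization, 0.0165 with library weights, 0.034 without the 3 libraries and -0.10 to 0.10 with 1 library left out. Without the 3 libraries, St3gal2 and St3gal5 turned to 0.18 and 0.18 between KO_LPS and WT_LPS and to 0.058 and 0.10 between KO_LPS and WT_PBS. Apart from what an alternative's own construction shows (fewer libraries, other genes tested), the cause was not tested. No paired analysis was possible because the labels give no replicate numbers. In the main fit, with 2 or 3 libraries a group and unknown read depth, the intervals of the 6 genes other than St3gal6 all included 0. This did not hold with library weights. Between KO_LPS and WT_LPS, St3gal5 then differed by -0.86 ± 0.20 (SE), St3gal1 by -0.53 ± 0.17 and St3gal2 by -0.51 ± 0.19. St6gal1 differed by -0.41 ± 0.13 and St3gal3 by -0.33 ± 0.14, and only the interval of St3gal4 (-0.19 ± 0.13) included 0. Between KO_LPS and WT_PBS the intervals of St3gal1, St3gal2, St3gal5 and St6gal1 lay below 0 with these weights, and those of St3gal3 and St3gal4 included 0.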
